A study of Mus musculus with 4 samples.

Results

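Thermogenic adipocyte genes were examined in the visceral fat of outbred CD-1 mice. The set held 10 of 21000 protein-coding genes with a curated RefSeq start site, namely Ucp1, Cidea, Ppargc1a, Prdm16, Dio2, Ebf2, Cox7a1, Cox8b, Elovl3 and Adrb3, which were picked by name for their known role in heat-producing fat and not by their values here. Earlier results of these data were known, however, when the genes were picked. Accessibility was measured by ATAC-seq, in which a transposase cuts open chromatin and piled-up reads form peaks, and 4 peak lists were available from 2 groups of 2 libraries. The control mice descended from dams injected with sesame oil, and the BPA mice from dams injected into the abdomen every day with the plasticiser bisphenol A at 50 mg/kg between embryonic days 7.5 and 13.5. All mice were CD-1. The study's text gives an age of 8 weeks for the mice of all experiments, without a separate age for the descendants assayed. Sample titles call the BPA mice F3, whereas the study's text and the deposited list names call them F4, and BPA 2 carries a different replicate number in its list name than in its title. Sex and batch were not labelled. With 2 libraries a group an exact two-sided permutation test cannot give a p-value below 1 in 3, so values were described for each library and no test between groups was run.

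Brown and beige adipocytes burn lipid to make heat. Noradrenaline from sympathetic nerves acts on beta-adrenergic receptors, cyclic AMP rises, and the signal both releases fatty acids and switches on Ucp1, whose protein lets protons leak across the inner mitochondrial membrane. Visceral fat is mostly white, and its thermogenic programme is usually low in unchallenged mice.

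Some facts of the libraries bear on all that follows. The lists held 82665 peaks in control 1 and 88911 in control 2, against 72375 in BPA 1 and 98060 in BPA 2, and the median pile-up at a summit was 22, 23, 19 and 38 reads. No read totals were given. The lowest local background in a list, which rises with depth, was 2.85, 2.70, 1.16 and 3.80 reads in the same order, so BPA 1 was the shallowest list by this measure and BPA 2 the deepest. Strength is given below as the rank of a peak by its q-value, in percent of its own list with the strongest peaks near 0%. It is also given as the fold of the pile-up over that library's local background, with 1 added to both. That addition lowers the fold most where the background is low. In a piece of tissue, fewer cells with an open site and a less open site in each cell cannot be told apart. Promoters of white adipocyte markers had a peak for 9, 7, 8 and 9 of 9 genes in control 1, control 2, BPA 1 and BPA 2, and hepatocyte markers for 0 of 3 in each. Many of the white marker peaks were weak. The 7 white markers with a peak in all 4 libraries had worst ranks between 55.4% (Cidec) and 89.0% (Plin1).

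The sequences that the results turn on are shown first, 200 bases each, from the RefSeq GRCm38 reference, which mm10 names. They are reference bases and not those of CD-1 mice. The enhancer of Ucp1 that is best known from brown fat lies between 2 and 3 kb before the start site, and the stretch shown, chr8:83287748-83287947 on the plus strand, covers -2600 to -2401 bp. Capitals in it mark the core of the cAMP response element (TGACG, or its reverse complement), the element bound by factors that the adrenergic signal activates. No peak covered it. The other upstream stretch, chr8:83278463-83278662, is centred on the summit of the sole region of the Ucp1 window with a peak in all 4 libraries.

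Ucp1 enhancer: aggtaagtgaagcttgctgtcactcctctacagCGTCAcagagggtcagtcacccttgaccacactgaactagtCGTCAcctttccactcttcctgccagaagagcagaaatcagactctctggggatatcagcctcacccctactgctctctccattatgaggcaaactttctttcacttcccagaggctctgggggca
Ucp1 upstream region: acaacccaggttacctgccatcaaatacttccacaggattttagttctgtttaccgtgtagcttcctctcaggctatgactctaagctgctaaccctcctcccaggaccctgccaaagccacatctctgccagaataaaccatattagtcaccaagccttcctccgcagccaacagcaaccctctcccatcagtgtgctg

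For regions that differed between the groups, 1 of each kind is shown, on the minus strand along which both genes are read. The Prdm16 stretch, chr4:154336727-154336926, had peaks in the BPA pair and none in the controls, and the Ppargc1a stretch, chr5:51585177-51585376, the opposite. The first had the best ranks and folds of its kind in the 10 windows, and the second the highest folds of its kind but not the best ranks. Neither holds a capital, since no searched motif was found in them.

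Prdm16 intron region: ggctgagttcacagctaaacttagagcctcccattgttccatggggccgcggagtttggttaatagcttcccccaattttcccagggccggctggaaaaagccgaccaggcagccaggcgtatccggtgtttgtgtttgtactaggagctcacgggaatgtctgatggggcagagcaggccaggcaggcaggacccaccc
Ppargc1a upstream region: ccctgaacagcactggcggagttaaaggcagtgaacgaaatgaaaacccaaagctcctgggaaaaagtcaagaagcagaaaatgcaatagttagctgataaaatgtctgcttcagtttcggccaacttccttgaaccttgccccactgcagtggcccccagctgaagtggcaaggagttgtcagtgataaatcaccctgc

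Promoters of 4 genes are shown from -200 to -1 bp of a start site, because 2 of them hold the whole cAMP response element TGACGTCA, 1 holds the core alone and 1 holds neither. They are chr8:83290148-83290347 for Ucp1 and chr7:30183971-30184170 for Cox7a1 on the plus strand, and chr12:90739039-90739238 for Dio2 and chr5:51553922-51554121 for the inner start site of Ppargc1a on the minus strand. Capitals mark the element or its core.

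Ucp1 promoter: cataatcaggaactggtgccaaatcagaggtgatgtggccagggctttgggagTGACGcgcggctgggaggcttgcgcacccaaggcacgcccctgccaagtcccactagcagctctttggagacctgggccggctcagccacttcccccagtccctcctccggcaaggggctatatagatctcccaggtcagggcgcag
Cox7a1 promoter: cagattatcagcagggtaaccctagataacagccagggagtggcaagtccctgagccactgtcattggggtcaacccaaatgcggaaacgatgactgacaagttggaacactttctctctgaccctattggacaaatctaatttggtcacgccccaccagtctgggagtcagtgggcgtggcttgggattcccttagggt
Dio2 promoter: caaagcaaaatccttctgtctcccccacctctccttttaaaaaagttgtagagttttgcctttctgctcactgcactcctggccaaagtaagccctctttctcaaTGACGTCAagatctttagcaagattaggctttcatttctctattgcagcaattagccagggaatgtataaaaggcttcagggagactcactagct
Ppargc1a promoter: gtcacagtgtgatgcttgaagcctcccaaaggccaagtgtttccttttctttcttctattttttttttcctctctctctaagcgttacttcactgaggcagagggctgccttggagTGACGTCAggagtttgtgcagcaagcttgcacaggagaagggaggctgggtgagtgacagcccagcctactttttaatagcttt

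The whole element was found in 2.01% of 21000 promoters and 0.498% of 95111 accessible regions of the same length, and the core, which lies within it, in 18.4% and 9.99%. Of the promoters of the set, those of Dio2 and of the inner Ppargc1a start site held the whole element. The core alone stood in those of Ucp1, of the outer Ppargc1a start site and of 1 of the Ebf2 start sites. In the 8 stretches shown and in the promoters of the set, 5 other motifs were searched on both strands, and the sole match was the EBF motif in the promoter of Cidea. The motifs were TCAAGGTCA of the oestrogen related receptors, 2 copies of AGGTCA with 1 base between them (PPAR with RXR), the same with 4 bases between (thyroid hormone receptor), TCCC and GGGA with 2 bases between (EBF), and TTGGC and GCCAA with 5 bases between (NFI). Up to 2 mismatches were allowed in the pairs of AGGTCA, 1 in the NFI motif and none in the others. Looser copies were not counted, so the lack of a match does not show that a stretch holds no site. On its reverse strand the Ucp1 enhancer stretch holds a looser AGGTCA pair with 1 base between, which the limit left out. Over all promoters these stood in 0.262%, 2.06%, 1.77%, 0.638% and 0.705%, and over all regions in 0.332%, 3.39%, 2.38%, 1.04% and 1.41%, so all 5 are rare in windows of this size.

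At promoters, taken as 500 bp either side of a start site, 6 of the 10 genes had a peak in control 1 and 8 in control 2, against 5 in BPA 1 and 8 in BPA 2. The means were 7 ± 1.41 (SD, n = 2) for control and 6.5 ± 2.12 (SD, n = 2) for BPA, and the groups overlapped. Over all coding genes 62.6%, 61.4%, 64.1% and 67.4% had a promoter peak in the same order. Cidea, Dio2, Ebf2 and Cox7a1 had one in all 4 libraries, as had 57.9% of coding genes. None of the 10 had a peak in both BPA libraries and no control library (2.51% of coding genes), and none had the opposite pattern (0.433%). The promoters thus gave no gene in which presence of a peak separated the groups. These counts take any overlap of a peak with the promoter. When the summit had to lie in it, the means were 6 for control and 5 for BPA, since Ppargc1a then had a promoter peak in no library and Prdm16 in control 2 alone. Adrb3 had no promoter peak in any library, a pattern shared by 30.4% of coding genes.

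**Figure D1:**
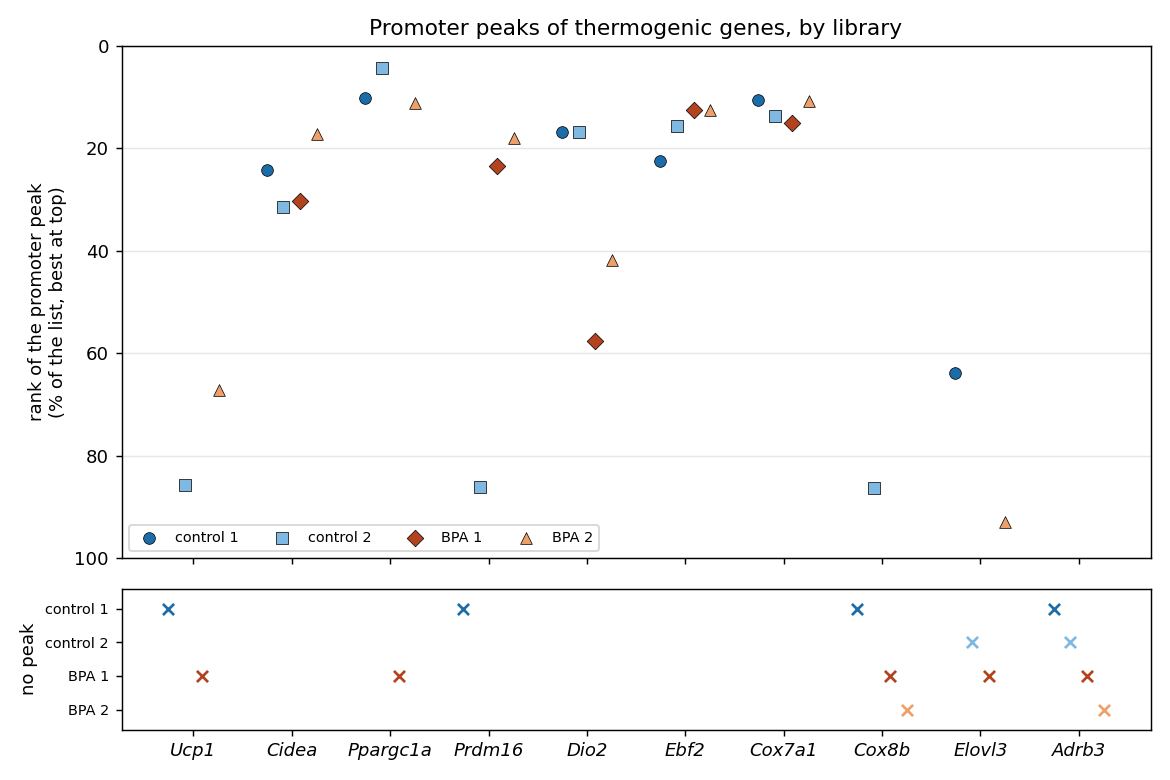
Rank of the best promoter peak of each thermogenic gene in percent of its library's list (vertical axis, strongest at the top), with 1 point for each library; crosses in the lower panel mark a gene with no promoter peak in that library. A peak counts by any overlap, and the summits of Ppargc1a in all libraries and of Prdm16 in BPA lie outside the promoter. Cox7a1 sits between 10.5% and 15.04% in all 4 libraries, Dio2 near 17% in both controls and at 57.5% and 41.9% in BPA, and Adrb3 has crosses alone.

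Ucp1, the uncoupling protein itself, had a promoter peak in 1 library of each group. Its promoter peak stood at 85.7% of the list in control 2 and at 67.1% in BPA 2, with folds of 3.01 and 4.41, and control 1 and BPA 1 had none. Among coding genes with a promoter peak these places were 98.3% and 95.3%, near the weak end in both lists. The pile-ups were 14 and 25 reads, and both libraries with the peak had the longer list of their group. Nearest to the start site in the other 2 were peaks at 11554 bp in control 1 and 11533 bp in BPA 1.

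The enhancer interval of Ucp1 held 0 peaks in each of the 4 libraries. From the stretch shown, the nearest peak edge was 8954 bp away in control 1 and 2428 bp in control 2, against 8933 bp in BPA 1 and 1998 bp in BPA 2. A peak list does not say how many reads lay below its threshold, so no level can be given there.

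Farther upstream, a region at -11.8 kb (negative distances are upstream of the first start site) was open in all libraries. Its ranks were 61.1% in control 1 and 40.2% in control 2, against 43.2% in BPA 1 and 21.5% in BPA 2, with folds of 3.92, 5.23, 6.52 and 8.92. Both BPA folds were above both control folds, but the ranks of the groups overlapped. The region at -17.7 kb had peaks at 30.6% in control 1, 25.4% in control 2 and 60.5% in BPA 2, with folds of 5.24, 6.21 and 5.08, and none in BPA 1. A region at -4.9 kb was present in BPA 2 alone. Upstream chromatin of Ucp1 was thus accessible at other places than the known enhancer.

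Adrb3, the beta-adrenergic receptor of adipocytes through which the signal enters, had no peak at its start site. Its nearest peaks lay 2132 bp away in control 1 and 720 bp in control 2, against 914 bp in BPA 1 and 889 bp in BPA 2, so each missed the promoter limit of 500 bp, although 3 lay within 1000 bp. The peak within the gene, at +1.0 kb in exon 2, ranked at 61.3% in BPA 1, 47.3% in BPA 2 and 43.9% in control 2, with folds of 3.48, 3.13 and 2.86, and was absent from control 1. This short gene had the densest window of the set, with 25.2 regions per 100 kb over 6 regions, but none of them was present in all 4 libraries. A region at -10.1 kb ranked at 43.4% in BPA 1, 69.6% in BPA 2 and 13.7% in control 2. The region at -2.4 kb had peaks in both control libraries alone, at 76.5% and 41.1% with folds of 2.38 and 3.03.

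Dio2, the deiodinase that makes active thyroid hormone inside the cell, had a promoter peak in every library, with a gap in rank between the groups. Its peak stood at 16.8% in control 1 and 16.9% in control 2, against 57.5% in BPA 1 and 41.9% in BPA 2. Both controls ranked better than both BPA libraries, as did 25.3% of the 28623 regions of coding gene windows with a peak in all 4 libraries. The folds, 5.66, 6.21, 5.57 and 5.87, did not separate the groups. The pile-ups were 39, 44, 15 and 41 reads, and the low value was that of BPA 1. In multiples of the lowest background of each list they were 13.7, 16.3, 13.0 and 10.8. By that measure both controls stood above both BPA libraries, as they did in rank. Of the 23 regions of the set with a peak in all 4 libraries, the Dio2 promoter was the only one with this order by that measure. In most of the others both BPA libraries stood above both controls. The share over regions of all genes was not counted. A small region at -1.6 kb was present in both controls, at 75.4% and 51.0%, and in neither BPA library.

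Ppargc1a encodes the coactivator that drives mitochondrial biogenesis. It has 2 curated start sites 13804 bp apart. No library had a peak within 500 bp of the outer site. A region just inside the inner site, in intron 1 of the long transcript, was open in all 4 libraries, with summits at +15397 and +15112 bp in the controls and at +15053 and +15050 bp in BPA. None of these summits lay within 500 bp of the inner site at +13804 bp, and the promoter calls came from the edges of wide peaks. Peaks that reached the promoter ranked at 10.1% in control 1, 4.32% in control 2 and 11.2% in BPA 2, with folds of 5.05, 7.05 and 8.83. BPA 1 had no peak within the limit, but its peak in the same merged region began 668 bp into the gene from the inner site, and ranked at 18.3% with a fold of 9.12. Taken over that region, both control ranks were better and both BPA folds higher. Thus the 3 of 4 pattern of this promoter rests on where 1 peak begins, and not on a missing peak. The control 2 peak, with 87 reads, was the best ranked of all peaks that reached a promoter of the set.

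The region at -17.6 kb of Ppargc1a had the highest folds of the 3 regions with a peak in both controls and no BPA library. It ranked at 75.4% in control 1 and 43.0% in control 2, with folds of 3.09 and 4.62, and the pile-ups were 17 and 25 reads. It was weak in control 1 and near the middle of the list in control 2. A region at +22.0 kb in intron 2 had peaks in both controls and BPA 2, at 81.0%, 52.1% and 84.0%.

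Prdm16 encodes the coregulator that holds brown and beige identity, and it had the longest window, 340.749 kb. Its promoter peak was absent in control 1 and stood at 86.0% in control 2, against 23.4% in BPA 1 and 17.9% in BPA 2, with folds of 2.82, 6.62 and 5.53. The summits of the BPA peaks lay at +1076 and +855 bp, outside the promoter, and only that of control 2, at +446 bp, lay inside. In control 1 the nearest peak began 585 bp from the start site, in the same merged region, had its summit at +945 bp, near those of BPA, and ranked at 51.9% with a fold of 4.11. Both BPA libraries ranked better than both controls over this region, as in 30.4% of regions with peaks in all 4 libraries. The region also covers start sites of Prdm16os and 5930403L14Rik, so the signal cannot be given to Prdm16 alone.

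Of the 27 regions in the Prdm16 window, 8 had a peak in both BPA libraries and neither control (9.72% of regions in all coding gene windows), 0 had the opposite pattern (4.64%), and 3 were present in all 4 libraries (30.1%). The strongest of the 8 lay at +300.05 kb in intron 10, the stretch shown above. It ranked at 13.2% in BPA 1 and 11.8% in BPA 2, with folds of 10.4 and 9.03 and pile-ups of 53 and 135 reads. Next came regions at +211.6 kb in intron 3, at 46.3% and 27.3%, and at +288.3 kb in intron 5, at 50.2% and 28.3%. The other 5, at -18.4, +40.3, +69.5, +86.6 and +129.9 kb, ranked between 79.1% and 97.9% in BPA 1 and between 41.4% and 87.3% in BPA 2, and their BPA 1 pile-ups of 7 to 11 reads are few. So 1 of the 8 was strong in both libraries and 5 were weak in BPA 1. Those at +86.6 and +129.9 kb also cover start sites of Gm13133 and Gm52688.

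Promoters of markers of other cell types were counted beside these regions. Among endothelial markers, a promoter peak was present for 2 of 6 genes in each control library and 6 of 6 in each BPA library, with Pecam1, Cdh5, Erg and Tie1 in the BPA libraries alone, a pattern of 2.51% of coding genes. The leukocyte markers counted 2, 3, 4 and 4 of 6. Skeletal muscle markers counted 3, 2, 3 and 3 of 7, and mesothelial markers 2, 2, 2 and 1 of 3. The part of other cell types in the Prdm16 regions was not tested.

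Ebf2, a transcription factor that commits precursors to the brown lineage, had the most regions of the set, 28. Its promoter peak stood at 22.5% in control 1 and 15.7% in control 2, against 12.5% in BPA 1 and 12.5% in BPA 2, with folds of 4.002, 5.15, 7.103 and 5.31. Both measures were on the BPA side in both BPA libraries, with control 2 and BPA 2 close in fold. At +124.4 kb in intron 7 the ranks were 85.2%, 32.1%, 19.3% and 13.4%, and the folds 2.77, 4.97, 8.51 and 7.32. That was the widest gap in fold of the 23 regions with peaks in all 4 libraries, 1.09 on the log2 scale of BPA over control. Both of its regions with BPA peaks alone, at +139.0 and +146.6 kb in intron 8, were weak, at 93.1% and 87.5% in BPA 1 and 69.6% and 51.7% in BPA 2. A further 11 of the 28 regions came from BPA 2 alone, and the share of such regions over all genes was not counted.

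**Figure D2:**
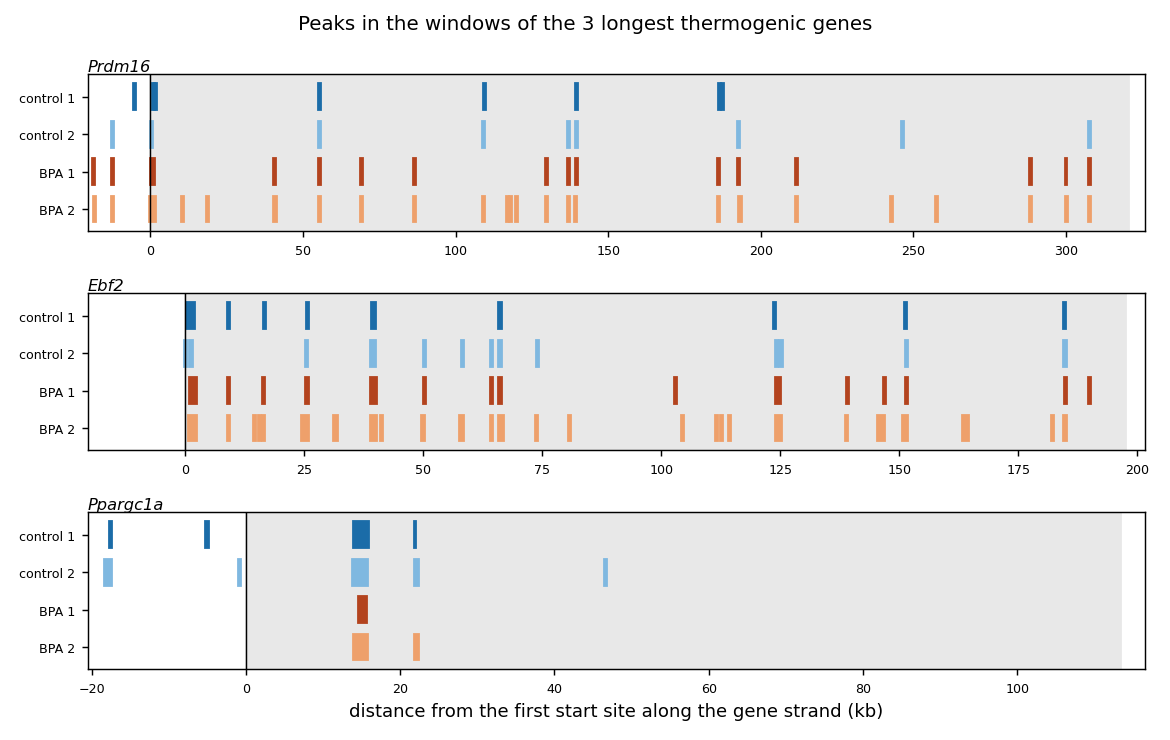
Peaks of each library (coloured bars, 1 row for each library) in the windows of the 3 longest genes, by distance in kb from the first start site along the gene strand; grey marks the gene, and the shortest peaks are drawn wider than to scale so that they can be seen. Of the 8 Prdm16 regions with bars in both BPA rows and neither control row the strongest is at +300.05 kb, and the Ppargc1a bars of all 4 rows meet near +15.1 kb, downstream of the inner start site.

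Cidea, a lipid droplet protein abundant in brown fat, had a promoter peak at 24.3% in control 1 and 31.5% in control 2, against 30.3% in BPA 1 and 17.2% in BPA 2. The folds were 5.89, 5.96, 7.82 and 9.03, higher in both BPA libraries, while the ranks overlapped. The same region covers a start site of B430212C06Rik. In its window 5 of 7 regions were present in all 4 libraries, and the other 4 of these lay at -19.1, -15.5, -7.1 and +21.1 kb. At -7.1 kb the controls ranked better, at 38.3% and 29.7% against 60.3% and 81.9%, and at +21.1 kb likewise, at 35.2% and 32.3% against 55.7% and 41.6%. In the other 3 shared regions the ranks of the groups overlapped.

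Cox7a1 and Cox8b encode subunits of cytochrome c oxidase that are typical of brown fat and muscle, and they differed from each other. The Cox7a1 promoter ranked within a narrow range, at 10.5% in control 1 and 13.6% in control 2, against 15.04% in BPA 1 and 10.8% in BPA 2, with folds of 6.74, 6.69, 9.57 and 9.42. The Cox8b promoter had a peak in control 2 alone, at 86.4% with a fold of 2.80 and 16 reads, and the nearest peak in the other 3 libraries lay 2457, 1315 and 690 bp away. Yet the Cox8b window held 2 regions with peaks in all libraries. At -8.3 kb the ranks were 53.2%, 52.9%, 39.0% and 14.0% with folds of 4.14, 4.38, 7.06 and 10.6, and both measures were on the BPA side in both BPA libraries. The other, at -2.3 kb, ranked at 74.6%, 61.3%, 67.1% and 32.4%. The strongest region of all 10 windows, at -14.3 kb of Cox7a1 and between 0.434% and 1.04% in every list, covers the promoters of Zfp146 and Gm5113 and is not that of Cox7a1.

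Elovl3, which elongates fatty acids to very long chains and is cold-induced in brown fat, had a promoter peak in control 1, at 63.9% with a fold of 3.32, and in BPA 2, at 92.9% with a fold of 2.11. The other libraries had none. Its 3′ end was open in all of them. That region, at +3.8 kb over exon 4, ranked at 21.7% in control 1 and 82.8% in control 2, against 21.7% in BPA 1 and 11.6% in BPA 2, with folds of 4.93, 2.77, 6.45 and 7.17. The controls lay far apart there, and BPA 1 was ahead of control 1 by less than the rounding of these ranks.

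**Figure D3:**
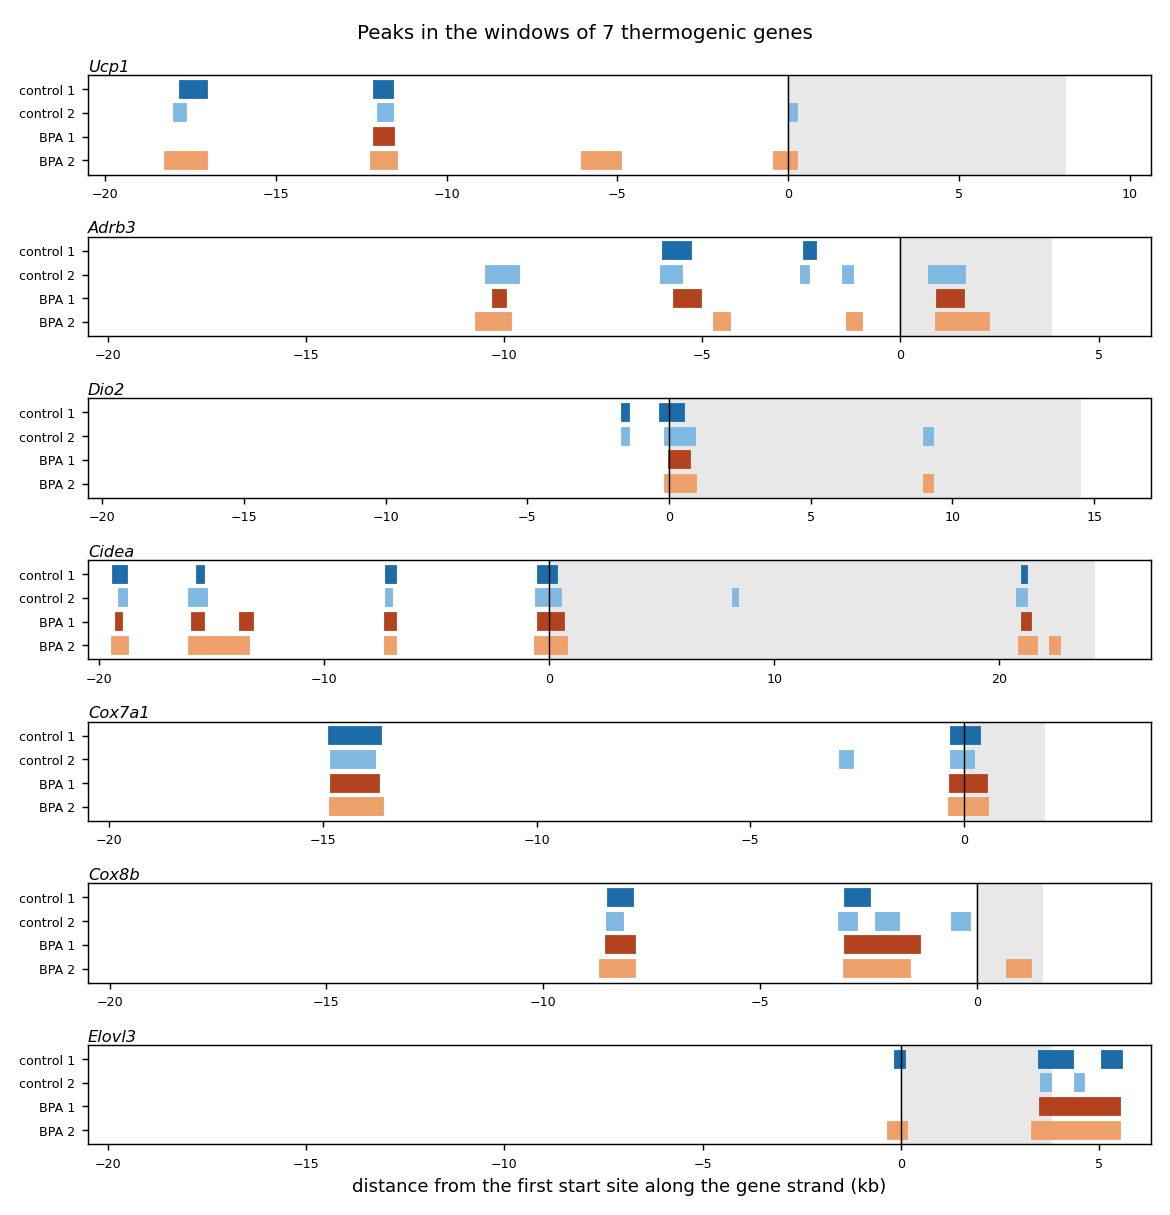
Peaks of each library (coloured bars) in the windows of the other 7 genes, by distance in kb from the first start site along the gene strand; grey marks the gene, and bars past its end belong to regions that begin inside the window. Ucp1 has bars at -11.8 kb in all 4 rows and none between -3 and -2 kb, and no bar touches the Adrb3 start site.

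Over all 10 windows, from 20 kb before the first start site to the gene end, 889.69 kb were covered. They held 38 peaks in control 1 and 52 in control 2, against 48 in BPA 1 and 75 in BPA 2, with means of 45 ± 9.90 (SD, n = 2) for control and 61.5 ± 19.1 (SD, n = 2) for BPA. These counts of the groups overlapped, and BPA 2, the longest list, had the most. In percent of its own list they were 0.0460% and 0.0585% in the controls, against 0.0663% in BPA 1 and 0.0765% in BPA 2. By that share the groups did not overlap. The same share for windows of all coding genes was not counted. Overlapping peaks merged into 90 regions, of which 58 lay in introns, 22 upstream, 7 at promoters and 3 in exons by the place of the summit.

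A peak was present in all 4 libraries in 23 regions (25.6%, against 30.1% of the 95111 regions in the windows of all coding genes). In both BPA libraries and no control library there were 10 (11.1%, against 9.72%), and in both control libraries and no BPA library 3 (3.33%, against 4.64%). All 3 shares were close to those of all genes. Of the 33 regions held by a single library, 22 came from BPA 2, the deepest list by lowest background. The share of such regions over all genes was not counted, so this is not a result about the set. Without control 2 the 10 became 18, and without BPA 2 the 3 became 6. Of the 10, 8 lay in the Prdm16 window, which makes up 38.3% of the length, and 2 in that of Ebf2. The median G+C content was 53.7% in the 10, 44.7% in the 3 and 51.1% in the 23.

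**Figure D4:**
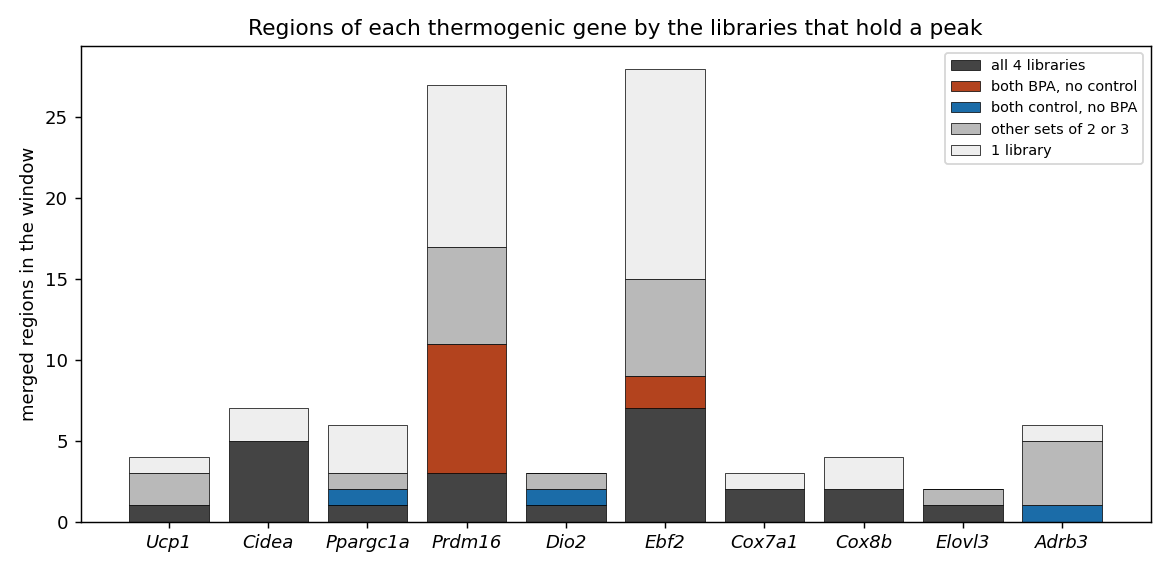
Number of merged regions in the window of each gene (bar height), split by the libraries that hold a peak there. Prdm16 has 8 of the 10 regions of both BPA libraries and no control library, Ebf2 the other 2, and the 3 of both controls and no BPA library stand in Ppargc1a, Dio2 and Adrb3.

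Within the 23 shared regions, both control ranks were better in 4 and both BPA ranks in 6, beside the 25.3% and 30.4% over all genes given above. In fold, both BPA libraries stood above both controls in 17 (65.9% of regions over all genes) and both controls above both BPA libraries in 0 (3.50% over all genes). The median log2 fold of BPA over control was 0.45 for these regions and 0.47 over all genes, so higher BPA folds were a property of the lists as a whole. The lowest local background was 1.16 reads in BPA 1 and 3.80 in BPA 2, the lowest and the highest of the 4 lists. The part of background in these folds was not tested.

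**Figure D5:**
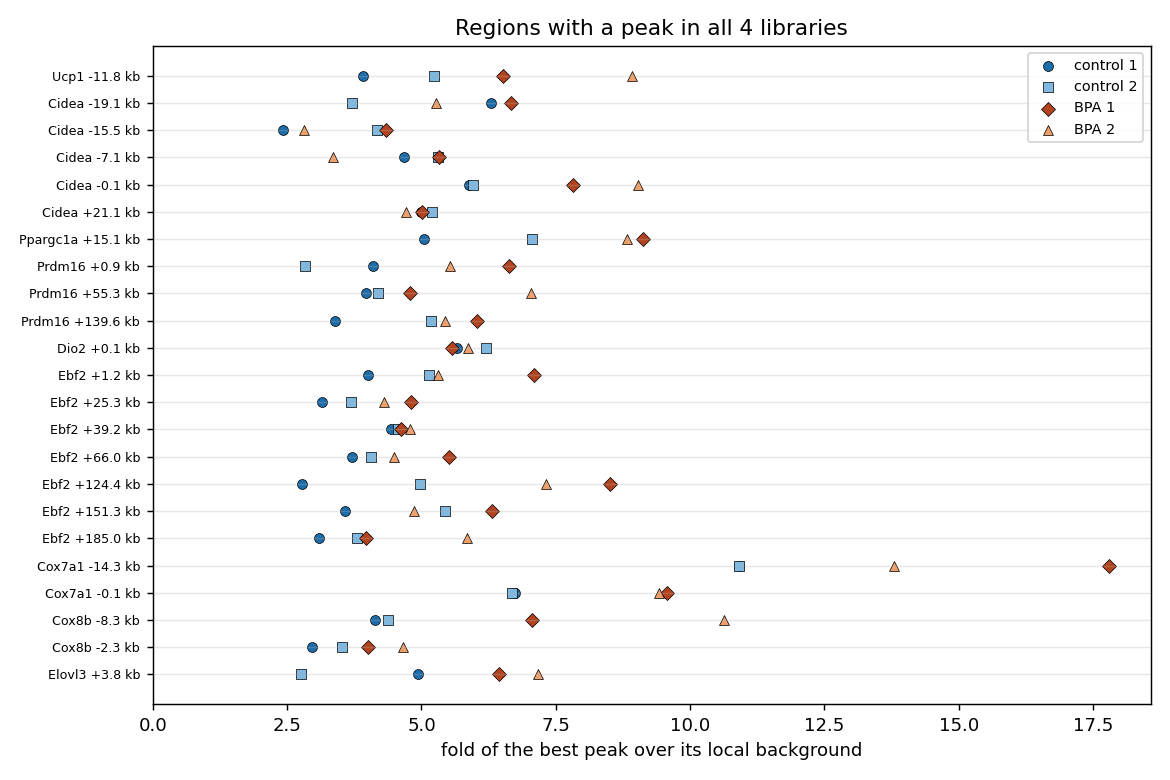
Fold of the best peak over its local background (horizontal axis, linear from 0) in each of the 23 regions with a peak in all 4 libraries, with 1 point for each library and the distance of each region from the first start site. Points of both BPA libraries lie to the right of both controls in 17 regions, and Dio2 +0.1 kb is one of those where they do not.

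Beyond the 10 genes, promoter peaks were counted over wider lists, to be read beside the 57.9% of coding genes with one in all 4 libraries. Adrenergic signalling genes, a list that does not hold Adrb3, had a promoter peak for 10 of 10 in each library. Their ranks went down to 81.9%, for Grk2 in control 1. Prkaca, the catalytic subunit of protein kinase A, ranked at 3.24% or better in all libraries. Regulators of the programme counted 18, 18, 20 and 20 of 20 in control 1, control 2, BPA 1 and BPA 2, with 17 (85%) in all 4. Atf2, a factor of the cAMP response element, and Esrra, an oestrogen related receptor that drives oxidative genes, ranked at 2.44% and 6.20% or better. Nfia, a factor of the brown lineage, had a peak in both BPA libraries alone, at 36.2% and 15.4%. These counts are of promoter peaks and say nothing of whether the genes were induced.

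Effector genes of brown fat counted 12, 10, 12 and 14 of 16, with 9 (56.2%) in all 4, close to the share of all coding genes. Etfdh, which passes electrons from fatty acid oxidation, and Pank1, which makes coenzyme A, were strongest, at 1.19% and 2.48% or better. Cpt1b, the carnitine transferase of muscle and brown fat, and Plin5, a lipid droplet protein, had no peak in any library, and Otop1 had one in both BPA libraries alone, at 75.1% and 41.6%. Genes of heat production without Ucp1, such as creatine and calcium cycling, counted 7, 6, 7 and 7 of 8, with 6 (75%) in all 4. Atp2a2, a calcium pump, and Pm20d1, an enzyme of acyl amino acids, led them at 21.9% and 28.4% or better, and Ckmt1 had none.

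Brown adipocyte markers counted 4, 5, 4 and 6 of 7, with 4 (57.1%) in all 4, and beige markers 4, 4, 5 and 6 of 6, with 4 (66.7%) in all 4. The brown markers in all 4 were Cidea, Eva1a, Epsti1 and Ebf3, with worst ranks of 31.5%, 89.7%, 76.2% and 45.6%. The beige ones were Tmem26, Cited1, Slc36a2 and P2rx5, with worst ranks of 60.4%, 35.2%, 85.6% and 26.4%. Lhx8 had no promoter peak in any library, Zic1 had one in BPA 2 alone, and Tbx1 in both BPA libraries alone, at 82.4% and 61.5%. Sympathetic nerve and Schwann cell markers counted 2 of 5 in each library. Tnfrsf9 had one in BPA 2 alone. Counts of the groups overlapped in the brown list but not in the beige one, and the share of all coding genes, 62.6% and 61.4% in control against 64.1% and 67.4% in BPA, did not overlap either.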

How the data were processed

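Visceral adipose tissue (4 libraries, 2 groups of 2) was assayed by Omni-ATAC. The authors trimmed reads with Trim Galore, mapped them to mm10 with Bowtie2 2.3.5.1, removed duplicates with SAMtools and called peaks for each library with MACS2 2.2.7.1. The deposited score is the −log10 q-value times 10 without decimals. The ratio the authors deposited is the fold of the pile-up over the local background, with the constant given above added to both. The deposited −log10 values of p and q come from the same Poisson model, with the weakest peaks at a q-value of 0.05. Depth per library was not given in the sources used here. Summit pile-ups were solved from fold and p-value, matching 100% of peaks within a relative error of 1e-04, and the solution was checked on simulated peaks.

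Promoters were 500 bp either side of curated RefSeq start sites on GRCm38 (45756 transcripts). A peak belonged to a promoter or window by any overlap, and overlapping or touching peaks of the libraries were merged into regions. A region was counted for a library with a 1 bp overlap of a peak. Ranks followed the q-value within a list. Python 3.11.15, pandas 2.3.3, numpy 2.4.6, scipy 1.17.1, pysam 0.24.0 and samtools 1.23.1 were used. No test between groups was run. All 10 genes were named. In the wider lists, genes were named for a promoter peak in both libraries of 1 group alone or in none, or as the 2 with the best worst rank, and 1 gene that met this rule is not reported here. Zic1, Tnfrsf9 and the search for the whole cAMP response element were chosen after values were seen. So was the naming of brown and beige markers with a peak in all 4 libraries. The genes, lists and alternatives were chosen with earlier results of these data known. The study's text gives 1 mouse for each library, so the spread between libraries holds differences between animals as well as technical ones.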

Additional observations from a re-analysis of the deposited data

How the results depend on the processing

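Of 80 alternative values, 64 stayed within 1.5 times of the reported one and 16 did not. When peaks needed a −log10 q-value of 5 or more, control peaks in the windows averaged 29, regions in all 4 libraries were 13, those of both BPA libraries alone 5 (4 in Prdm16) and those of both controls alone 0. With the best 20000 peaks of each list, promoters averaged 4 in control and 4 in BPA, window peaks 6.5 and 9, and regions numbered 13, with 4 in all 4 libraries, 3 in both BPA libraries alone (2 in Prdm16) and 1 in both controls alone. Windows from 50 kb upstream gave 35 regions in all 4 libraries, and a peak that had to cover 50% of a region gave 10. Without 1 library of the other group there were 13 to 18 regions of both BPA libraries alone, with 18 without control 2, and 4 to 6 of both controls alone, with 6 without BPA 2. Fewer peaks or libraries enter these counts by construction. No paired analysis was possible because no result comes from a test between groups and the shared replicate numbers name separate mice. Depth limits absence: a site without a peak was below the threshold of its list, and BPA 1 had the lowest background.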
